A study of Mus musculus with 14 samples.

Results

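Knockouts of Snf2h and of Brg1 were compared gene by gene in whole eyes of newborn mice, and 166 of 12393 measured genes (1.34%) were apart from wildtype in both experiments. A gene was counted when, in each experiment, every knockout array lay above every wildtype array or every knockout array lay below every wildtype array. The genes were thus chosen by the log2 values of all 14 arrays in both contrasts, and their differences are given as a description without a test. Of the 166 genes, 64 (0.516% of all genes) were lower in both knockouts, 43 (0.347%) were higher in both, 41 (0.331%) were lower in the Snf2h knockout and higher in the Brg1 knockout, and 18 (0.145%) were higher in the Snf2h knockout and lower in the Brg1 knockout.

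Total RNA of eyes at postnatal day 1 was amplified from 50 ng and hybridised to single-colour Affymetrix arrays. The Snf2h experiment held 4 wildtype and 4 lens-conditional Snf2h knockout (cKO) samples, labelled C57BL/6. The Brg1 experiment held 3 wildtype and 3 Brg1 cKO samples on a mixed background. No array was shared between the experiments, and each knockout was set against its own wildtype. The labels name no Cre line, and for Brg1 they do not name the cells that lost the gene. Remodeller, strain background and experiment changed together, so a difference between the knockouts cannot be told apart from these. The labels do not tie samples to single animals, so the errors below measure the spread between these samples. In whole eyes, fewer cells of a type and less RNA per cell cannot be told apart.

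Snf2h, the product of Smarca5, is the ATPase of ISWI complexes, which slide and space nucleosomes. Brg1, the product of Smarca4, is an ATPase of SWI/SNF (BAF) complexes, which move or evict nucleosomes at promoters and enhancers. In the lens, epithelial cells leave the cell cycle, elongate into fibres, accumulate crystallins and then degrade their nuclei, and both kinds of remodeller have been tied to this sequence. The cornea and eyelid surface, retina, vessels, muscle and immune cells of the eye add their RNA to a whole-eye sample.

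Promoter sequences show 4 of the genes that the classes turn on. Each is the RefSeq sequence (GRCm38.p6) of the 250 bases before the annotated start, read along the gene's own strand, with the searched motif in capitals. Dnase2b (chr3:146615599-146615848, minus strand) and Adh1 (chr3:138277335-138277584, plus strand) were lower in both knockouts. Both hold a pair of inverted GAA units of a heat shock element, GAANNTTC, a site type of heat shock factors. Aldh1a1 (chr19:20492333-20492582, plus strand) was lower in both and holds an AP-1 type match, TGANTCA. Cxcl1 (chr5:90890995-90891244, plus strand) was lower in the Snf2h and higher in the Brg1 knockout and holds 2 matches to an NF-kB type motif, GGG and TTTCC separated by 2 bases of any kind.
Dnase2b: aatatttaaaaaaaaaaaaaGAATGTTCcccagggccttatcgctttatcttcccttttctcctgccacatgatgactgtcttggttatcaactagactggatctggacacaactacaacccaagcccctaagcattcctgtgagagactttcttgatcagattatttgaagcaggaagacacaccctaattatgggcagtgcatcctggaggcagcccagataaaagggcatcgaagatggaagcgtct
Adh1: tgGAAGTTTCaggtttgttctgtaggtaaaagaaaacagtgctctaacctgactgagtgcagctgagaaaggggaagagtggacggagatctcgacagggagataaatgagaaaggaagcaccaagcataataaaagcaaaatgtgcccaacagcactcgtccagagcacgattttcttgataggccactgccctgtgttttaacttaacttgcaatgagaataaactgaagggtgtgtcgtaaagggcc
Aldh1a1: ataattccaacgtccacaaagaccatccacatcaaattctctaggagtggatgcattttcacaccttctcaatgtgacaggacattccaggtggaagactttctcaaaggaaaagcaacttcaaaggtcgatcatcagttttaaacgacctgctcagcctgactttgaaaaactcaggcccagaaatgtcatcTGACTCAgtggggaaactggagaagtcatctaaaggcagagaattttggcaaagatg
Cxcl1: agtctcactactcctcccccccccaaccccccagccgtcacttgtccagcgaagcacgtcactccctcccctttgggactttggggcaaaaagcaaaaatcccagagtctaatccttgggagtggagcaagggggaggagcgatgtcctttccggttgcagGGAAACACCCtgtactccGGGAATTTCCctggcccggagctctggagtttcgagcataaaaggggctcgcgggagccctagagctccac

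A promoter window was found for 134 of the 166 genes and for 9887 of all measured genes. The motifs were chosen after the members were known and were searched on both strands, overlapping matches allowed. GAANNTTC was in 6.59% of all these windows and in 7 of 46 windows (15.2%) of genes lower in both knockouts, those of Adh1, Chn2, Dnase2b, Foxd1, Hemgn, Olfm3 and Pde10a. It was in 5 of 40 windows (12.5%) of genes higher in both, and in 1 of 17 and 1 of 31 windows of the opposite classes. TGANTCA was in 6.84% of all windows, in 7 of 46 of genes lower in both, 3 of 40 higher in both, 2 of 17 higher in the Snf2h and lower in the Brg1 knockout, and 4 of 31 in the reverse class. The NF-kB type motif was in 1.78% of all windows and in 0 of 46, 2 of 40, 1 of 17 and 1 of 31 in the same order. These are letter matches in small numbers of windows, and binding was not measured. The match in Dnase2b began 230 bases before the start, that in Adh1 248 bases and that in Aldh1a1 57 bases before it.

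The arrays had median intensities between 101 and 114. Snf2h cKO replicates 1 and 2 were nearly alike, with an SD of their gene-by-gene differences of 0.21 on the log2 scale, while within-group SDs of the other 17 array pairs were 0.40 to 0.72. Snf2h wildtype replicate 3 had a Gapdh 3′ minus 5′ probe difference, a sign of RNA quality, of 4.47, against 1.09 to 1.46 in the other Snf2h wildtype arrays, 0.77 to 0.99 in the Snf2h cKO arrays and 0.63 to 0.96 in the Brg1 experiment. This array also had the highest summed level of wound and cornified epidermis markers in its experiment. Lens (Cryaa, Cryab), photoreceptor (Crx), corneal (Krt12) and pigment cell (Dct) markers were present in all wildtype arrays with log2 levels above 9, as labelled for whole eyes. The targeted genes gave a weak check: Smarca5 overlapped between Snf2h cKO and wildtype arrays in 3 of 3 probe sets (log2 differences −0.50, −0.19 and 0.31), and Smarca4 overlapped between Brg1 cKO and wildtype arrays in 2 of 2 (0.05 and −0.74). In the experiment of the other gene, the dimmer Smarca4 probe set was apart and higher in Snf2h cKO arrays (0.89), while the brighter one overlapped (−0.33). The Smarca5 probe set with −0.50 was apart and lower in Brg1 cKO arrays (−0.20), while the others overlapped. Whether these probes lie in the deleted exons is not known here.

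The question was how far loss of an ISWI and of a SWI/SNF ATPase was followed by the same expression differences. Across all genes the mean differences were almost unrelated, with Pearson's r = 0.09 and Spearman's rho = 0.07 over 12393 genes, as a description across genes that share arrays and are not independent. The same sign was seen in 6473 genes (52.2%). Taken array by array against the mean difference of the other experiment, r was 0.12, 0.12, −0.02 and 0.08 for Snf2h cKO replicates 1 to 4, and 0.19, −0.06 and 0.13 for Brg1 cKO replicates 1 to 3. In each experiment 1 knockout array gave an r below 0.

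**Figure D1:**
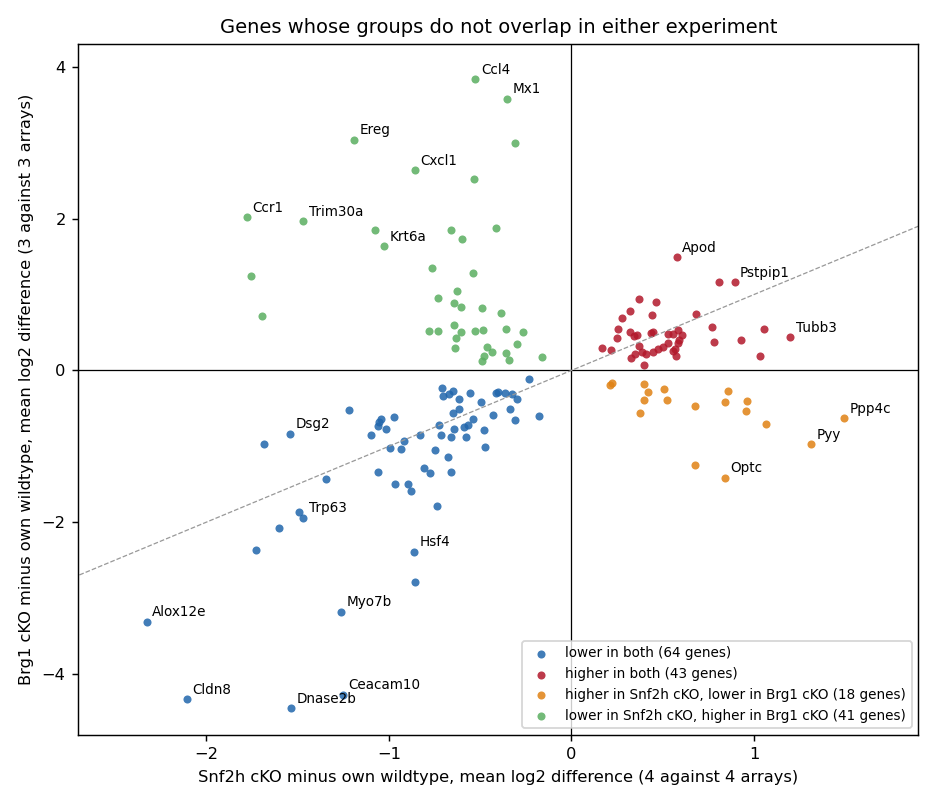
Each point is 1 of the 166 genes, placed by its mean log2 difference in the Snf2h experiment (x axis) and in the Brg1 experiment (y axis), coloured by class, with the line of equal differences dashed. The longest arms are at the lower left, where 64 genes were lower in both, and at the upper left, where Ccl4 and Mx1 differed by −0.53 and −0.35 in the Snf2h and by 3.84 and 3.58 in the Brg1 experiment.

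The number of genes in each class was set beside the share of all genes that were apart in the same direction. In the Snf2h experiment the groups of 1277 genes (10.3%) were apart, 596 lower (4.81%) and 681 higher (5.5%). In the Brg1 experiment 1800 were apart (14.5%), 774 lower (6.25%) and 1026 higher (8.28%). The 64 genes lower in both made up 10.7% of the Snf2h-lower genes, where 6.25% of all genes were Brg1-lower, and 8.27% of the Brg1-lower genes, where 4.81% of all genes were Snf2h-lower. The 43 genes higher in both made up 6.31% of the Snf2h-higher genes, below the 8.28% of all genes that were Brg1-higher, and 4.19% of the Brg1-higher genes, below 5.5%. With all arrays, genes that went opposite ways were also below the share among all genes. The 18 genes higher in Snf2h and lower in Brg1 knockout were 2.64% of the Snf2h-higher genes (6.25% of all genes) and 2.33% of the Brg1-lower genes (5.5%). The 41 genes lower in Snf2h and higher in Brg1 knockout were 6.88% of the Snf2h-lower genes (8.28%) and 4.0% of the Brg1-higher genes (4.81%). No test was made of these shares.

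**Figure D2:**
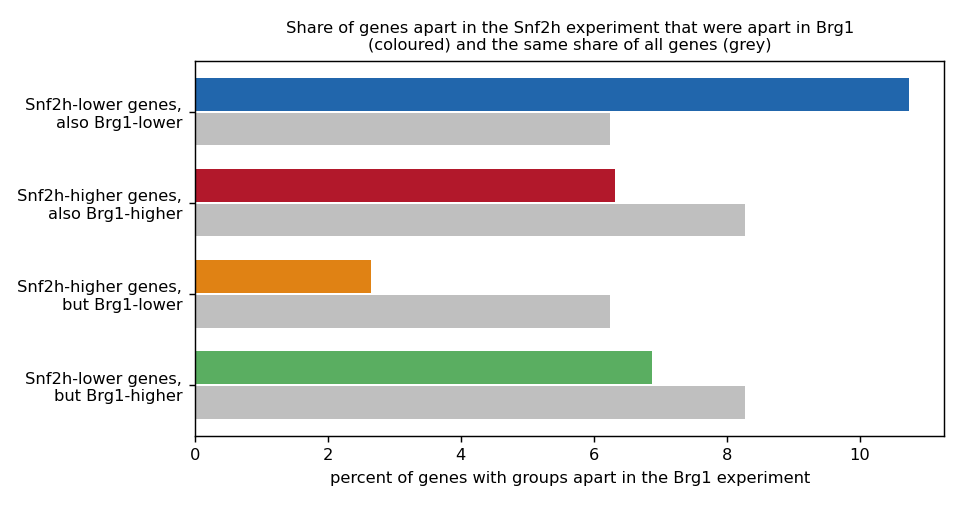
Coloured bars give the percent of genes apart in the Snf2h experiment that were also apart, in the stated direction, in the Brg1 experiment, and grey bars give the same percent of all genes. Among Snf2h-lower genes 10.7% were also Brg1-lower, the only coloured bar above its grey bar (6.25%).

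The balance of the classes moved with single Brg1 arrays. Of the 166 genes, 107 (64.5%) had the same direction in both knockouts. Leaving out Brg1 wildtype replicate 2 gave 303 genes apart in both, of which 144 (47.5%) had the same direction, and leaving out Brg1 cKO replicate 3 gave 180 of 351 (51.3%). Leaving out Brg1 cKO replicate 2 gave 234 of 321 (72.9%), and then 17.3% of the Snf2h-higher genes were also Brg1-higher against 14.1% of all genes, the reverse of the order with all arrays. The filter on dim genes also reversed it, to 6.77% against 6.57%. The order of the opposite classes turned as well. Without Brg1 wildtype replicate 2, 10.1% of the Snf2h-higher genes were Brg1-lower against 9.77% of all genes, and 15.1% of the Snf2h-lower genes were Brg1-higher against 12.3%. Without Brg1 cKO replicate 3 the former shares were 12.5% against 11.6%. The latter were 13.26% against 13.19% without Brg1 cKO replicate 1 and 8.43% against 8.28% without Snf2h wildtype replicate 2. The share of Snf2h-lower genes that were also Brg1-lower stayed above that of all genes in each leave-one-out, the closest being 8.03% against 6.25% without Snf2h wildtype replicate 4 and 14.1% against 11.6% without Brg1 cKO replicate 3. With Snf2h cKO replicates 1 and 2 averaged as 1 sample, 128 of 209 genes (61.2%) had the same direction.

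In the class lower in both, the median log2 difference was −0.74 in the Snf2h and −0.84 in the Brg1 experiment, against −0.05 and 0.02 over all genes. Both differences were at least 1 in size in 11 of the 64 genes. The Brg1 difference was the larger in 40 of 64. By limma with an adjusted p under 0.05 over all genes, 0 of the 64 were called in the Snf2h experiment (0.0161% of all genes, 0.00807% in each direction) and 11 in the Brg1 experiment (1.09% of all genes, 0.476% lower and 0.613% higher). Since the same values chose the genes, nothing is read from these counts. Of the class, 35 of 64 genes (54.7%) were at or above the median level used as a filter, close to the 58.3% of all genes.

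Of the genes of lens fibre maturation, Dnase2b, Hsf4 and Capn3 were in this class. Dnase2b encodes the lysosomal nuclease that degrades the DNA of fibre cell nuclei. Its log2 level was 8.73, 8.94, 8.54 and 8.95 in the Snf2h wildtype arrays and 6.54, 6.57, 7.59 and 8.32 in the Snf2h cKO arrays. In the Brg1 experiment it was 7.72, 8.07 and 8.27 in wildtype and 2.94, 5.33 and 2.45 in cKO arrays. The groups did not overlap, and the near-alike Snf2h cKO replicates 1 and 2 were the lowest of their group while replicate 4 came close to wildtype. The mean differences were −1.53 ± 0.37 and −4.45 ± 0.68 (limma SE, n = 4 against 4 and 3 against 3), which left 34.5% and 4.57% of wildtype.

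Hsf4, a heat shock family transcription factor needed for lens fibre differentiation, was 8.21, 8.19, 7.79 and 8.39 in Snf2h wildtype and 7.19, 6.98, 7.37 and 7.57 in Snf2h cKO arrays. Its levels were 6.00, 6.80 and 6.54 in Brg1 wildtype and 4.28, 4.83 and 3.07 in Brg1 cKO arrays. The gap between the groups was small in the Snf2h experiment and wide in the Brg1 experiment, with differences of −0.86 ± 0.18 and −2.39 ± 0.44. Capn3, a calcium-dependent protease with lens splice forms, differed by −1.49 ± 0.31 and −1.86 ± 0.55. It was 9.75 to 10.63 in Snf2h wildtype, 8.10 to 9.38 in Snf2h cKO, 9.27 to 10.09 in Brg1 wildtype and 6.55 to 8.89 in Brg1 cKO arrays. Dnase2b and Hsf4 were the only members among 22 measured genes of denucleation and organelle loss. Of that list, 16 (72.7%) had the same sign in both experiments, against 52.2% of all genes. The list as a whole went both ways, with 11 positive and 11 negative differences in the Snf2h experiment (median 0.0033) and 9 positive and 13 negative in the Brg1 experiment (median −0.11).

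Structural genes of the fibre had 0 members, where 1.34% of all genes were members. Beside this share, 0 or 1 member in a list of this length or of those below is not read as a result. Of 14 crystallins, 0 were apart and lower in the Snf2h experiment (4.81% of all genes), where their median difference was −0.17 and 12 were negative, and 13 were apart and lower in the Brg1 experiment (6.25% of all genes), where it was −2.31. The same sign in both experiments was seen in 12 of the 14 (85.7%). The mean crystallin level was 12.42 to 13.01 in Snf2h wildtype, 12.37 to 12.96 in Snf2h cKO, 12.59 to 12.86 in Brg1 wildtype and 8.97 to 11.94 in Brg1 cKO arrays. Of 14 genes of fibre membrane and cytoskeleton, 0 were apart in both, 9 (64.3%) had the same sign, and the median differences were −0.27 and −0.28, with 11 and 12 negative. Their mean level was 9.0 to 9.35 and 8.55 to 9.19 in Snf2h wildtype and cKO arrays, which overlap, and 9.51 to 9.67 and 8.36 to 9.11 in Brg1 wildtype and cKO arrays, which do not. The part of a smaller share of lens RNA in the lower levels of Dnase2b, Hsf4 and Capn3 was not tested.

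Surface epithelium gave a further group. Trp63, the transcription factor that maintains stratified epithelia, was 7.07, 7.04, 6.70 and 6.80 in Snf2h wildtype and 5.93, 5.78, 5.24 and 4.80 in Snf2h cKO arrays. In the Brg1 experiment it was 9.21, 9.17 and 9.10 in wildtype and 6.28, 7.09 and 8.29 in cKO arrays. All groups were apart, with differences of −1.47 ± 0.24 and −1.94 ± 0.45. Its other probe sets, both dim, gave 0.02 and 0.11 in the Snf2h and 0.07 and 0.26 in the Brg1 experiment, so the result rests on 1 probe set. Dsc2 and Dsg2 encode desmosomal cadherins. Dsc2 had nearly equal differences of −0.92 ± 0.20 and −0.93 ± 0.24, and its other probe set, at −0.44 and −0.26, had the same signs. Dsg2 differed by −1.54 ± 0.30 and −0.84 ± 0.23, with its highest Snf2h wildtype level, 8.93, in replicate 3. A dim Dsg2 probe set gave 0.30 and −0.39, and the rest had the signs of the member. Alox12e, an epidermis-type 12-lipoxygenase, had the largest smaller-of-the-pair difference of the class. It was 8.25, 7.06, 9.55 and 9.08 in Snf2h wildtype, 6.07, 6.34, 6.67 and 5.55 in Snf2h cKO, 8.13, 8.24 and 5.43 in Brg1 wildtype and 3.48, 4.31 and 4.06 in Brg1 cKO arrays. Brg1 wildtype replicate 3 was well below the other wildtype arrays but still above all cKO arrays, and the differences were −2.33 ± 0.48 and −3.31 ± 0.71.

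Trp63, Dsc2 and Dsg2 were 3 of 38 measured genes of stratified epithelium. Of those 38, 27 (71.1%) had the same sign in both experiments. The mean level of this list was 7.0 to 8.07 in Snf2h wildtype, 6.86 to 7.48 in Snf2h cKO, 7.90 to 8.25 in Brg1 wildtype and 7.13 to 8.06 in Brg1 cKO arrays, so its groups overlapped in both experiments. Among 16 genes of corneal surface identity only Aldh1a1 was apart in both. Aldh1a1, a retinaldehyde dehydrogenase abundant in cornea and lens, was 10.87 to 11.05 in Snf2h wildtype and 9.80, 10.06, 10.64 and 10.73 in Snf2h cKO arrays. It was 10.28 to 10.53 in Brg1 wildtype and 9.01 to 9.70 in Brg1 cKO arrays, and the differences were −0.68 ± 0.21 and −1.14 ± 0.23. The corneal keratin Krt12, which is no member, was 9.42 to 9.90 in Snf2h wildtype, 9.12 to 10.63 in Snf2h cKO, 9.26 to 9.50 in Brg1 wildtype and 5.33 to 5.84 in Brg1 cKO arrays.

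**Figure D3:**
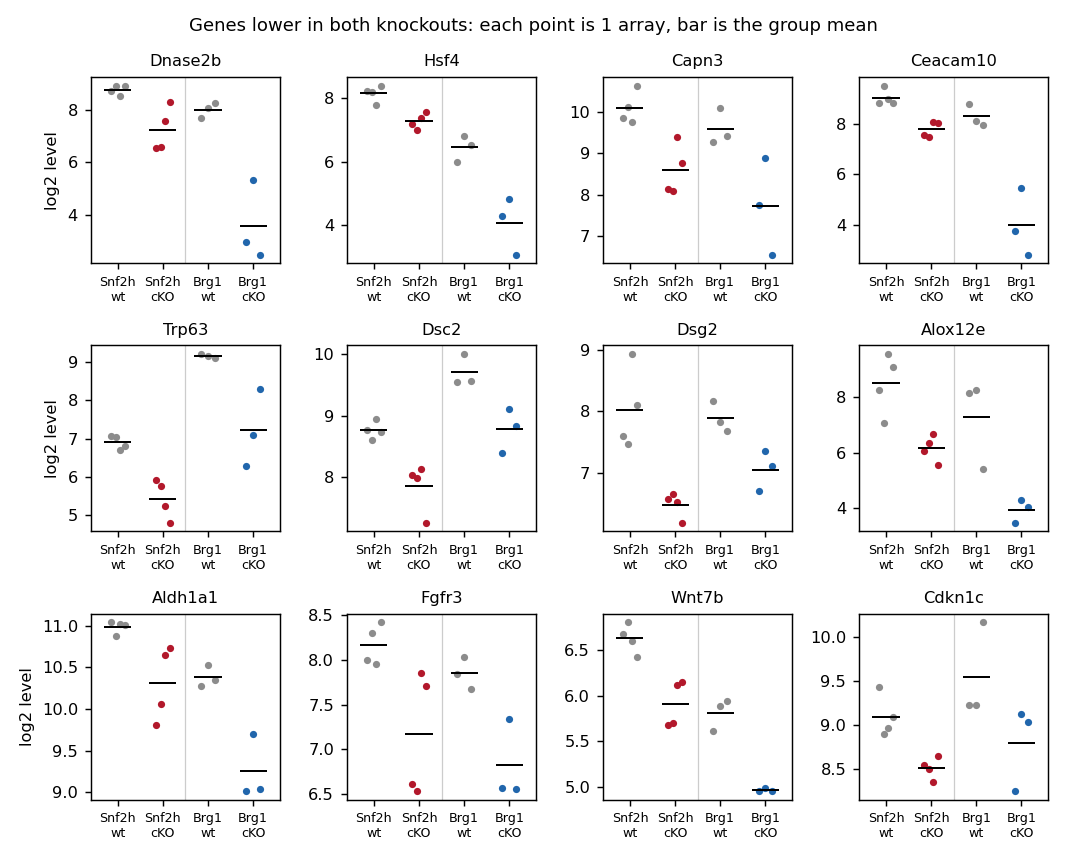
Log2 levels of 12 genes lower in both knockouts are plotted for each array in the 4 groups, with bars at the group means and a separate vertical scale for each gene. In every panel the cKO points lie below the wildtype points of the same experiment, closely for Cdkn1c in the Brg1 experiment and widely for Dnase2b and Ceacam10.

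Signals and regulators formed a smaller set in this class. Fgfr3, a receptor for fibroblast growth factors, had almost equal differences of −0.99 ± 0.31 and −1.02 ± 0.25. Its Snf2h cKO levels were 6.62, 6.53, 7.85 and 7.70 against 7.95 to 8.42 in wildtype, so replicates 1 and 2 carried most of the difference. The other Fgfr3 probe set, which was dim, gave 0.10 and −0.43, so its Snf2h sign was the opposite. Wnt7b, a Wnt ligand of surface ectoderm, differed by −0.71 ± 0.16 and −0.84 ± 0.16. They were 2 of 65 measured genes of FGF, BMP, Wnt and Notch signalling. Msx2, a homeobox factor of the early lens and eyelid, was dim and differed by −0.73 ± 0.18 and −0.72 ± 0.22. With Hsf4 it was 1 of 2 members among 28 lens epithelium genes and lens transcription factors. Cdkn1c encodes p57, a CDK inhibitor of cells leaving the cell cycle, and was the only member among 26 genes of cell cycle exit. It differed by −0.59 ± 0.15 and −0.74 ± 0.34. Its Brg1 difference was −0.43 without Brg1 wildtype replicate 3, whose level of 10.17 was above the 9.22 of both others, and −0.46 without Brg1 cKO replicate 1.

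Membrane and transport genes had some of the largest differences. Cldn8, a claudin of tight junctions, differed by −2.11 ± 0.42 and −4.33 ± 0.42, with Snf2h wildtype levels of 3.50, 5.74, 5.18 and 4.88 against 3.02, 3.02, 2.33 and 2.50 in cKO arrays. Its Brg1 levels were 7.31, 6.75 and 5.64 in wildtype and 1.84, 2.41 and 2.47 in cKO arrays. Knockout levels of Cldn8 were thus near the dimmest signals on the array in both experiments. Ceacam10, an immunoglobulin family protein, went from 8.80 to 9.50 in Snf2h wildtype to 7.45 to 8.05 in Snf2h cKO arrays, and from 7.94 to 8.78 to 2.81 to 5.46 in the Brg1 experiment (−1.25 ± 0.21 and −4.27 ± 0.62). Myo7b, an unconventional myosin of microvilli, differed by −1.26 ± 0.29 and −3.18 ± 0.17. Htr3a, a subunit of the serotonin-gated ion channel, differed by −1.72 ± 0.41 and −2.37 ± 0.30, and Slc15a1, an oligopeptide transporter, by −1.60 ± 0.32 and −2.07 ± 0.40. Il18r1, an interleukin-18 receptor chain, gave −1.35 ± 0.36 and −1.43 ± 0.26, and the calcium-binding protein gene Scgn gave −1.06 ± 0.23 and −1.33 ± 0.28. Ndufa1, a subunit of respiratory complex I and the only member among 50 genes of oxidative phosphorylation, was bright and differed by −0.48 ± 0.14 and −1.01 ± 0.27.

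The other genes of this class had Snf2h differences between −0.18 and −1.68 and Brg1 differences between −0.11 and −2.79. Named after their values were seen, these included Adh1, an alcohol dehydrogenase (−0.86 and −2.79), Celsr1, an adhesion receptor of planar cell polarity (−0.73 and −1.79), and the transcription factors Gata6 (−0.66 and −1.33) and Foxd1 (−1.06 and −0.73). Chn2, a Rac GTPase activating protein, was just inside the rule, with a gap of 0.00039 between its Brg1 groups. Its Brg1 difference of −0.30 was −0.16 without Brg1 cKO replicate 2 and −0.18 without Brg1 wildtype replicate 2. Strc, the gene for stereocilin, was just outside, with a gap of −0.0072 between its Brg1 groups.

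Genes higher in both knockouts differed by less, with medians of 0.48 in the Snf2h and 0.44 in the Brg1 experiment and 0 of 43 with both differences of at least 1. Of these, 34 of 43 (79.1%) lay at or above the filter level. By limma, 0 of the 43 were called in the Snf2h (0.0161% of all genes) or the Brg1 experiment (1.09% of all genes). As the same values chose the genes, nothing is read from this. Of the 43 genes, only Tubb3, Trem2, Junb and Psmd2 were in the gene lists. Pstpip1, a cytoskeletal adaptor of blood cells, had the largest smaller-of-the-pair difference. It was 4.69, 3.58, 4.03 and 4.62 in Snf2h wildtype, 4.80, 5.44, 5.44 and 4.82 in Snf2h cKO, 4.59, 3.83 and 4.44 in Brg1 wildtype and 5.14, 6.02 and 5.17 in Brg1 cKO arrays. The Snf2h groups were nearly touching, and the differences were 0.89 ± 0.28 and 1.16 ± 0.31.

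Slc2a3, the neuronal glucose transporter GLUT3, was 8.07, 8.0, 8.42 and 7.41 in Snf2h wildtype and 8.83, 8.81, 8.57 and 8.92 in Snf2h cKO arrays. It was 8.92, 8.28 and 8.98 in Brg1 wildtype and 10.16, 9.37 and 10.14 in Brg1 cKO arrays, giving 1.75-fold and 2.25-fold higher means (0.81 ± 0.21 and 1.17 ± 0.29). Its other bright probe set had the same signs, at 0.59 and 1.13. Bin1, a membrane-bending protein, differed by 0.68 ± 0.18 and 0.75 ± 0.18, and Apod, the lipid-binding apolipoprotein D, by 0.58 ± 0.18 and 1.49 ± 0.35. The other Bin1 probe set, which was dim, gave 0.71 and −0.07, so its Brg1 sign was the opposite. Tubb3, the neuronal tubulin, was 9.37, 9.48, 8.60 and 9.98 in Snf2h wildtype, 10.32 to 10.82 in Snf2h cKO, 10.81 to 11.05 in Brg1 wildtype and 11.23 to 11.49 in Brg1 cKO arrays. Its differences were 1.20 ± 0.26 and 0.44 ± 0.16, and it was the only member among 42 inner retina genes. Of 36 photoreceptor genes 0 were members (1.34% of all genes), and 27 (75.0%) had the same sign in both experiments.

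Immune and stress genes were few in this class. Trem2, a receptor of macrophages and microglia, differed by 0.61 ± 0.16 and 0.46 ± 0.18. The other Trem2 probe set, which was dimmer, gave −0.31 and 0.07, so its Snf2h sign was the opposite. Cfp encodes properdin, a positive regulator of complement, and differed by 0.46 ± 0.16 and 0.90 ± 0.18. Tnip2, an inhibitor of NF-kB signalling, gave 0.53 ± 0.17 and 0.48 ± 0.17. Junb, an AP-1 subunit and the only member among 29 AP-1 and immediate early genes, was dim in the Snf2h experiment (3.48 to 3.97 in wildtype and 4.01 to 4.27 in cKO arrays) and differed by 0.37 ± 0.14 and 0.95 ± 0.18. Psmd2, a proteasome subunit, was the only member among 55 genes of proteasome and folding, at 0.35 ± 0.14 and 0.21 ± 0.15. Mcrs1, a nuclear protein found in the INO80 remodelling complex, gave 1.05 ± 0.20 and 0.55 ± 0.20. Of 46 listed chromatin remodelling subunits 0 were members (1.34% of all genes). Further genes were Car14, a carbonic anhydrase (0.58 and 0.53), Ube3b, a ubiquitin ligase (0.56 and 0.48), Caln1, a calcium-binding protein (0.77 and 0.57), and Ddx25, an RNA helicase (0.45 and 0.51). The remaining genes lay between 0.17 and 1.03 in the Snf2h and between 0.07 and 0.78 in the Brg1 experiment. Adgra3, an adhesion G protein-coupled receptor, was just inside the rule, with a Snf2h gap of 0.00094. Plekho1, a pleckstrin homology domain protein, was just outside, with a gap of −0.0018.

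The class lower in the Snf2h and higher in the Brg1 knockout held 41 genes (0.331% of all genes). In the immune and wound lists it held 1 of 35 macrophage genes (Cd53), 0 of 26 neutrophil genes and 1 of 33 interferon response genes (Mx1). It also held 2 of 56 genes of cytokines, chemokines and acute phase (Ccl4 and Cxcl1) and 1 of 27 wound and cornified epidermis genes (Krt6a). Counts this small are not read as a result. The class medians were −0.60 and 0.83, and 6 of 41 had both differences of at least 1. By limma, 0 of the 41 were called in the Snf2h experiment (0.0161% of all genes). In the Brg1 experiment 3 were called, Ereg, Ccl4 and Mx1 (1.09% of all genes, 0.613% higher). The same values chose the genes, so nothing is read from these counts. Of the class, 20 of 41 genes (48.8%) were at or above the filter level. Ccr1, a receptor for CC chemokines, was 4.2, 5.19, 5.02 and 4.41 in Snf2h wildtype and 2.93, 3.08, 2.87 and 2.84 in Snf2h cKO arrays. It was 2.94, 4.49 and 2.57 in Brg1 wildtype and 4.71, 6.49 and 4.84 in Brg1 cKO arrays. Brg1 wildtype replicate 2 came close to the Brg1 cKO arrays, and the differences were −1.78 ± 0.22 and 2.01 ± 0.62. Ccr2, a chemokine receptor of monocytes, lies 2 protein-coding genes away from Ccr1 on chromosome 9 and differed by −1.08 ± 0.35 and 1.84 ± 0.44. Its Snf2h wildtype levels were 2.50, 2.42, 3.94 and 3.77 and its Snf2h cKO levels 1.96 to 2.32, all among the dimmest signals.

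Ereg, the EGF receptor ligand epiregulin, was 2.87, 3.79, 3.86 and 4.11 in Snf2h wildtype and 2.39, 2.4, 2.49 and 2.58 in Snf2h cKO arrays. It was 3.23, 3.73 and 3.83 in Brg1 wildtype and 5.82, 7.30 and 6.79 in Brg1 cKO arrays. Wildtype levels were similar in both experiments, and the knockouts lay on either side of them (−1.19 ± 0.24 and 3.04 ± 0.37). All but the Brg1 cKO levels were among the dim signals of the array, where differences are compressed. Cxcl1, a neutrophil-attracting chemokine 3 protein-coding genes away from Ereg on chromosome 5, was 3.64, 4.63, 3.47 and 3.36 and 3.18, 2.77, 3.21 and 2.51 in Snf2h wildtype and cKO arrays. It was 4.04, 3.47 and 4.24 in Brg1 wildtype and 5.30, 7.36 and 7.01 in Brg1 cKO arrays (−0.86 ± 0.29 and 2.64 ± 0.52). Ccl4, a macrophage chemokine, had the largest Brg1 difference of the class, from 3.06 to 3.19 in wildtype to 5.85, 8.60 and 6.40 in cKO arrays (3.84 ± 0.63), beside −0.53 ± 0.12 in the Snf2h experiment. Mx1, an interferon-induced antiviral GTPase, similarly gave −0.35 ± 0.14 and 3.58 ± 0.28.

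For Ccl4 and Mx1 the Snf2h side was thus a small difference between dim values. Of 56 genes of cytokines, chemokines and acute phase, 36 were apart and higher in the Brg1 experiment (8.28% of all genes) and 5 apart and lower in the Snf2h experiment (4.81%). Of the list, 2 genes were members and 12 (21.4%) had the same sign in both. Their mean level was 4.74 to 5.02 in Snf2h wildtype, 4.45 to 4.71 in Snf2h cKO, 4.79 to 5.05 in Brg1 wildtype and 6.06 to 7.49 in Brg1 cKO arrays, so the groups of both experiments were apart in opposite directions. Of 33 interferon response genes, 1 was a member and 7 (21.2%) had the same sign. Their mean level overlapped in the Snf2h experiment (5.61 to 6.01 in wildtype, 5.51 to 5.65 in cKO arrays) and did not in the Brg1 experiment (5.31 to 5.90 and 6.14 to 8.22). Immune cell markers moved with the Brg1 side. The 26 neutrophil markers averaged 3.78 to 4.0 in Brg1 wildtype and 5.36 to 6.77 in Brg1 cKO arrays, against 3.82 to 4.43 and 3.49 to 4.2 in Snf2h wildtype and cKO arrays. The 35 macrophage markers averaged 6.39 to 6.81 and 7.12 to 8.05 in the Brg1 experiment and 6.40 to 7.13 and 6.58 to 7.04 in the Snf2h experiment. The part of these cells in the class was not tested.

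Cd53, a leukocyte tetraspanin, differed by −0.41 ± 0.15 and 1.88 ± 0.37. In the Snf2h experiment it lay near the filter level of 6.77, at 6.77 to 7.17 in wildtype and 6.26 to 6.75 in cKO arrays, which nearly touched. Trim30a, an interferon-inducible ubiquitin ligase family member, was 5.17, 5.83, 4.94 and 5.26 and 4.51, 3.42, 3.82 and 3.58 in Snf2h wildtype and cKO arrays. It was 6.25, 6.05 and 6.65 in Brg1 wildtype and 7.41, 9.31 and 8.12 in Brg1 cKO arrays (−1.47 ± 0.26 and 1.97 ± 0.45). Further immune genes of this class, named after their values were seen, were the inflammasome sensor Nlrp3 (−0.66 and 1.85), the Fc receptor Fcgr4 (−0.54 and 2.52), Ifi204, an interferon-inducible DNA sensor (−0.31 and 2.99), and Ly86, a partner of a Toll-like receptor family protein (−0.73 and 0.95). Brg1 cKO replicate 2 was the array farthest from wildtype in 30 of the 41 genes and had a class median of 1.21 above wildtype, where replicates 1 and 3 had 0.61 and 0.57.

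Krt6a, a keratin of wounded and activated epidermis, was the only member among 27 wound and cornified epidermis genes. It was 8.63, 8.40, 10.08 and 9.45 in Snf2h wildtype, 8.26, 8.09, 8.32 and 7.79 in Snf2h cKO, 8.62 to 8.66 in Brg1 wildtype and 9.60, 10.69 and 10.55 in Brg1 cKO arrays. The Snf2h groups nearly touched, with the highest wildtype level in replicate 3, and the differences were −1.02 ± 0.34 and 1.64 ± 0.29. Both other Krt6a probe sets had the same signs. The 27 markers averaged 6.75 in Snf2h wildtype replicate 3, 4.82 to 5.46 in the other wildtype and 4.74 to 5.10 in the Snf2h cKO arrays, and 4.86 to 5.16 and 5.99 to 6.63 in Brg1 wildtype and cKO arrays. Among extracellular regulators, Mmp19, a matrix metalloproteinase, gave −0.77 ± 0.21 and 1.35 ± 0.33. Tfpi2, a serine protease inhibitor, gave −1.75 ± 0.25 and 1.24 ± 0.48, the latter 0.67 without Brg1 cKO replicate 2. The remaining genes of the class had Snf2h differences from −0.16 to −1.70 and Brg1 differences from 0.12 to 1.73. Fam20c, a secretory pathway kinase, was just inside the rule, with a Brg1 gap of 0.0025, and Mov10l1, an RNA helicase of germ cells, was just outside, with a Snf2h gap of −0.0021.

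**Figure D4:**
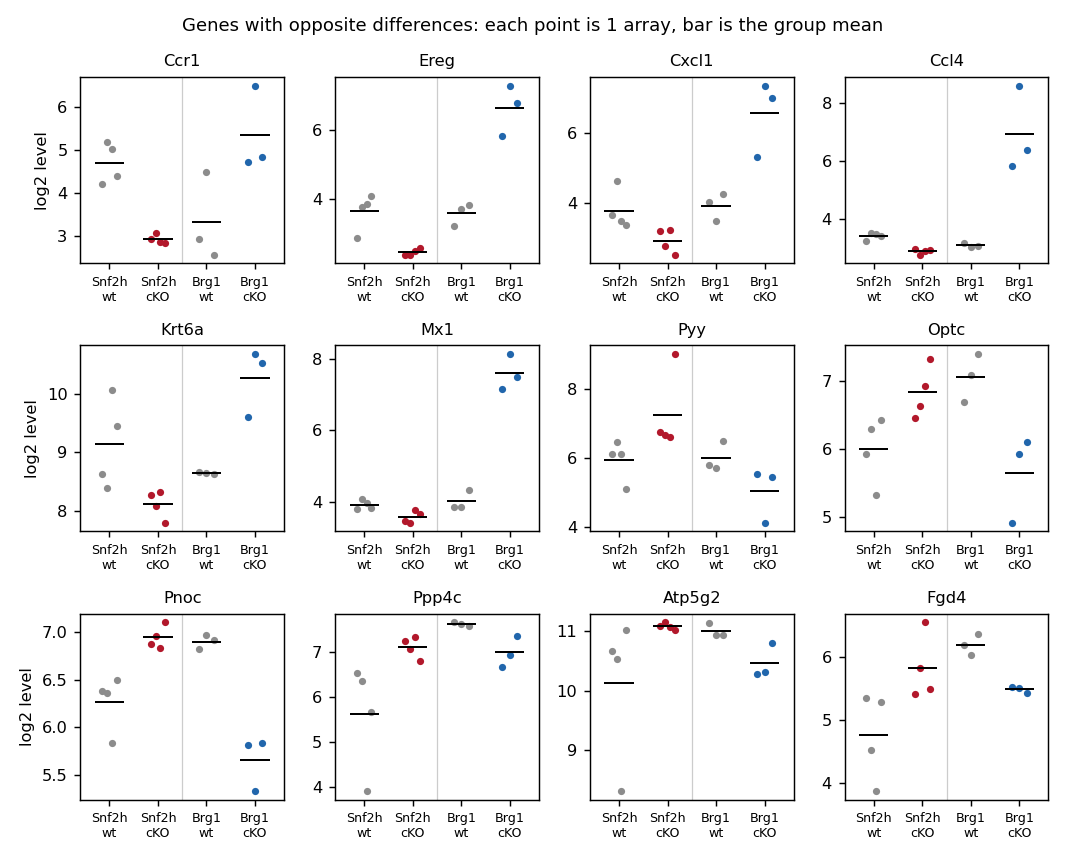
Log2 levels of 12 genes that went opposite ways are plotted for each array in the 4 groups, with bars at the group means and a separate vertical scale for each gene. For Ccr1, Ereg, Cxcl1, Ccl4, Krt6a and Mx1 the Snf2h cKO points are below and the Brg1 cKO points above their wildtypes, and the other 6 genes show the reverse, with a single low Snf2h wildtype array for Ppp4c and Atp5g2.

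The 18 genes higher in the Snf2h and lower in the Brg1 knockout had medians of 0.68 and −0.41 and leaned on 1 array. Snf2h wildtype replicate 3 was the lowest wildtype array in 14 of the 18 genes. Its class median was −0.67 relative to the wildtype mean, where the other wildtype arrays had 0.17 to 0.23. Without it the median Snf2h difference was 0.43, and 8 of the 18 differences moved by more than 1.5 times, against 1 of 64, 1 of 43 and 3 of 41 genes in the other classes. The rule fixes the direction without that array, since every knockout array lies above every wildtype array. Whether the RNA quality of that array, given by its Gapdh difference of 4.47, took part was not tested. By limma, 0 of the 18 were called in the Snf2h experiment (0.0161% of all genes). In the Brg1 experiment 1 was called, Pnoc (1.09% of all genes, 0.476% lower). Nothing is read from these counts, since the same values chose the genes.

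Ppp4c, a catalytic phosphatase subunit, was 6.53, 6.37, 3.92 and 5.67 in Snf2h wildtype and 7.25, 7.07, 7.34 and 6.80 in Snf2h cKO arrays. It was 7.57 to 7.66 in Brg1 wildtype and 6.66, 6.94 and 7.36 in Brg1 cKO arrays. The differences were 1.49 ± 0.50 and −0.63 ± 0.21, and the former was 0.93 without Snf2h wildtype replicate 3. Atp5g2, a subunit of the ATP synthase ring, went from 0.96 to 0.35 without that array, Lamtor4, a lysosomal Ragulator subunit, from 0.84 to 0.45, and Ap1s1, a clathrin adaptor subunit, from 0.68 to 0.37. The other Atp5g2 probe set, which was dim, gave 0.48 and 0.33, so its Brg1 sign was the opposite. Get3, an ATPase that delivers tail-anchored membrane proteins, was just inside the rule with a Snf2h gap of 0.00095. Its Snf2h difference went from 0.96 to 0.60, and its Brg1 difference went from −0.41 to −0.27 without Brg1 cKO replicate 1. H2aw, a histone H2A gene, was just outside, with a Snf2h gap of −0.0017.

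Without that array, the Snf2h differences of Optc, Pnoc, Fgd4 and Pyy moved by less than 1.5 times. Optc, the leucine-rich proteoglycan opticin of the vitreous, was 5.93, 6.29, 5.33 and 6.44 in Snf2h wildtype and 6.45, 6.64, 6.93 and 7.34 in Snf2h cKO arrays. It was 6.70, 7.09 and 7.41 in Brg1 wildtype and 4.91, 5.94 and 6.11 in Brg1 cKO arrays. The Snf2h groups nearly touched, and the differences were 0.84 ± 0.27 and −1.41 ± 0.34. Pnoc, the precursor of the neuropeptide nociceptin, was 6.39, 6.36, 5.84 and 6.50 and 6.88, 6.96, 6.84 and 7.11 in Snf2h wildtype and cKO arrays. It was 6.82 to 6.97 in Brg1 wildtype and 5.82, 5.33 and 5.84 in Brg1 cKO arrays (0.68 ± 0.17 and −1.24 ± 0.19). Fgd4, an exchange factor for Cdc42, gave 1.07 ± 0.36 and −0.71 ± 0.16. Another Fgd4 probe set with the same mean level of 5.52 gave 0.14 and 0.17, so its Brg1 sign was the opposite. The dimmer Fgd4 probe sets had the signs of the member, at 1.21 and −0.39 and at 1.18 and −0.81. Pyy, the gut and neuronal peptide YY, gave 1.31 ± 0.53 and −0.97 ± 0.41, but the former was 0.72 without Snf2h cKO replicate 4 and the latter −0.51 without Brg1 cKO replicate 2. The remaining 9 genes had Snf2h differences from 0.21 to 0.86 and Brg1 differences from −0.17 to −0.56. Of these, 3 moved by more than 1.5 times without Snf2h wildtype replicate 3, and they are named for that: Grcc10 (0.86 to 0.43), Sub1 (0.51 to 0.29) and Rps19 (0.40 to 0.18).

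**Figure D5:**
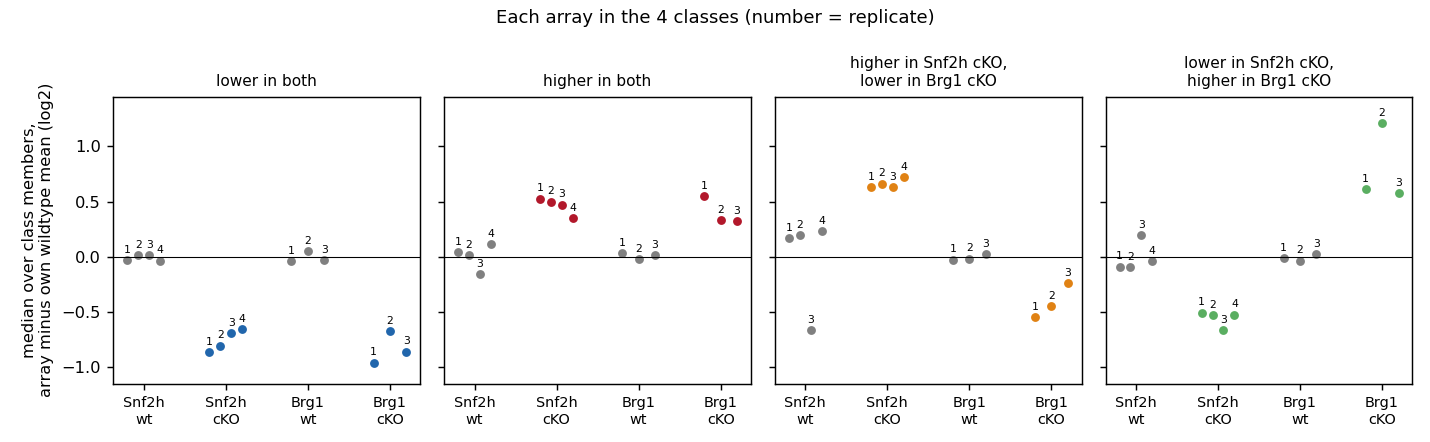
The median over class members of each array's log2 level minus the mean of its own wildtype group is plotted for the 14 arrays in each class, with the replicate number above each point. Snf2h wildtype replicate 3 stands at −0.67 in the class higher in Snf2h and lower in Brg1 knockout, and Brg1 cKO replicate 2 at 1.21 in the reverse class.

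Wildtype levels differed between the experiments in a way that followed the Snf2h direction in every class, more so in the opposite classes. The Snf2h minus Brg1 wildtype level had a median of 0.81 in genes lower in Snf2h and higher in Brg1 knockout and −0.53 in genes higher in Snf2h and lower in Brg1 knockout, against 0.15 over all genes. In genes lower in both it was 0.50, and in genes higher in both −0.18. Knockout levels were the other way round in the opposite classes, with medians of −0.59 and 0.42. In 22 of 41 and 9 of 18 genes the knockouts lay closer together than the wildtypes did. Wildtype arrays take part in both the classes and these levels, so the relation is a description of them.

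Single knockout arrays contributed unevenly. In genes lower in both, Snf2h cKO replicates 1 and 2 had medians of −0.87 and −0.81 relative to wildtype and replicates 3 and 4 had −0.69 and −0.66. Replicates 1 and 2 were the farthest from wildtype in 21 and 23 of 64 genes, and Brg1 cKO replicate 2 was the nearest to wildtype in 32 of 64. In genes higher in both, Brg1 cKO replicate 1 had a median of 0.55, above the 0.33 and 0.32 of replicates 2 and 3, and was the farthest in 29 of 43.

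Other probe sets of the same genes are a check that the choice of genes did not use directly, although they read the same RNA. For 57 of the 166 genes there were 103 further probe sets, and 71 of them had the sign of the member in both experiments. By class these were 27 of 37 in genes lower in both, 7 of 15 in genes higher in both, 6 of 10 in genes higher in Snf2h and lower in Brg1 knockout, and 31 of 41 in the reverse class. Of the 36 at or above the filter level, 28 had both signs of the member.

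Genome position linked few members. Among 162 genes placed on a chromosome, 9 pairs lay within 5 protein-coding genes of each other. Pairs of the same class were Ccr1 and Ccr2, Cxcl1 and Ereg, and Msx2 and Sptlc1, a subunit of serine palmitoyltransferase. The others crossed classes, such as Fgfr3, lower in both, and Fam53a, higher in both, which lie 3 genes apart on chromosome 5.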

How the data were processed

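The authors deposited 1 linear intensity per probe set and array, and the submitters' processing notes name RMA, without a version, as the summary method. Joint processing of the experiments is not given in the labels, so levels were compared between experiments only as a description. The log2 of the deposited intensity was taken with no offset or further scaling. Of 22690 probe sets, 64 controls, 691 with several genes and 1555 with none were left out, and each of 12393 genes was represented by its brightest probe set on average over all arrays. RMA pulls dim probe sets towards the background, which compresses their differences.

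The members and gene lists were chosen with earlier results of these data known. Mean differences and their standard errors came from limma 3.58.1 in R 4.3.3 (lmFit, eBayes), fitted over all genes in each experiment with calls at an adjusted p (Benjamini-Hochberg) under 0.05. The scripts were tested on simulated data. The text names, per class, the 12 (same direction) or 8 (opposite) members with the largest smaller-of-the-pair difference, up to 4 members per gene list, the 3 with the most nearly equal sizes among those with both differences of at least 1, and the gene just inside and just outside the rule. Transcripts without a proper gene name are not named. Alternatives were quantile normalisation, a filter on genes with a mean log2 level under 6.77, other handling of probe sets, stricter rules, a replicate block, trended robust eBayes, the average of Snf2h cKO replicates 1 and 2, and leaving out each array. Precision is limited by the number of arrays.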

Additional observations from a re-analysis of the deposited data

Results flagged for a closer look

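In 8 of 128 groups of 4 Snf2h arrays checked for 64 named genes, the highest or lowest array stood far from the others of its group, where chance gives about 1 in 20. These log2 levels were Dsc2 in Snf2h cKO replicate 4 (7.25), Trem2 in cKO replicate 1 (5.71), Adgra3 in cKO replicate 3 (9.19), Pyy in cKO replicate 4 (9.02), Fam20c in cKO replicate 3 (8.69) and Smarca5 in wildtype replicate 2 (9.82). H2aw stood apart in wildtype replicate 3 (8.38) and in cKO replicate 3 (9.10).

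Genes whose knockout arrays all moved one way in the Snf2h and all the other way in the Brg1 experiment have a Snf2h minus Brg1 difference of their log2 changes, which was not tested because it was used to choose them. The class fixes its sign. Among genes lower in the Snf2h and higher in the Brg1 knockout it was −4.36 for Ccl4, −4.23 for Ereg, −3.93 for Mx1, −3.79 for Ccr1, −3.50 for Cxcl1, −3.43 for Trim30a, −2.99 for Tfpi2, −2.92 for Ccr2, −2.66 for Krt6a, −2.29 for Cd53, −2.12 for Mmp19 and −0.48 for Fam20c. In the reverse class it was 2.28 for Pyy, 2.26 for Optc, 2.12 for Ppp4c, 1.92 for Pnoc, 1.78 for Fgd4, 1.49 for Atp5g2, 1.37 for Get3, 1.25 for Lamtor4 and 1.15 for Ap1s1.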

How the results depend on the processing

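The counts depended on the rule. Of the 166 genes, 127 stayed in their class with quantile normalisation and 124 with the mean of all probe sets per gene. Under these settings 0 genes entered another class. Of the settings with 1 value per gene, only these could have moved a gene to another class. The dim filter, the rules on difference, gap or unadjusted p, the averaged replicates and the left-out arrays keep the direction of every member by construction. For single probe sets this was not counted. Of 1412 comparisons of the 64 named genes with a setting, 0 were counted as reversed and 19 moved by more than the replicate spread. Most of these settings could not reverse a member, so the 0 is not read as stability. The targeted genes Smarca5 and Smarca4 are no members. The Brg1 differences of their brightest probe sets (−0.0025 and 0.05) were small and not counted as reversed. They changed sign when single arrays were left out, Smarca5 for example without Brg1 cKO replicate 2 and Smarca4 without Brg1 cKO replicate 1. In the order lower in both, higher in both, higher in Snf2h and lower in Brg1, lower in Snf2h and higher in Brg1, a gap of at least 0.2 between groups left 23, 1, 2 and 6 genes. The dim filter left 35, 11 and 20 in all but the class higher in both, a mean difference of at least 0.5 left 7, 6 and 23 in all but the class lower in both, an unadjusted limma p under 0.05 in each experiment gave 110 lower in both and 71 in the last class, and single probe sets gave 39 in the class higher in Snf2h and lower in Brg1. Leaving out 1 array in turn gave 74 to 116, 50 to 118, 20 to 85 and 54 to 90 genes, since fewer arrays make it easier to lie apart. Limma called 1 gene higher and 1 lower in the Snf2h experiment. This became 0 higher with either quantile normalisation (2 lower within the experiment), 0 and 0 with single probe sets or with replicates 1 and 2 averaged, 9 and 4 with the dim filter, 4 and 3 with trended robust eBayes, and 0 to 9 and 0 to 51 without 1 array. In the Brg1 experiment 76 higher and 59 lower became 8 and 15 with the dim filter and 18 to 120 and 8 to 117 without 1 array. The causes were not tested. With the replicate number as a block the calls were 0 higher and 0 lower in the Snf2h and 33 higher and 16 lower in the Brg1 experiment. Same-numbered arrays correlated in their deviations by −0.27 to 0.10 and −0.01 to 0.09, and differently numbered arrays by −0.26 to 0.29 and −0.30 to 0.22. With so few arrays this does not settle whether the numbers pair the samples.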
